A study of Mus musculus with 4 samples.

Results

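Keratin genes were followed in 4T1Br cells, a brain-seeking line derived from the mouse mammary carcinoma line 4T1. The cells were transduced with control hairpin RNA or with hairpin RNA directed at YTHDF3, a cytoplasmic protein that binds N6-methyladenosine in messenger RNA. Of 10 keratins looked for by symbol, 5 of simple epithelia (Krt7, Krt8, Krt18, Krt19 and Krt23) and 5 of basal or stratified epithelia (Krt5, Krt14, Krt15, Krt17 and Krt80), 9 had a probe set that the platform annotation gives to that gene alone. These 9 genes, with 10 probe sets, were members of a table of 22180 named genes. Krt5 had only a probe set shared with Krt6a. The list was drawn up around Krt7, which was chosen by its rise between these same arrays (the shYTHDF3 minus shControl difference), and the other keratins were added by name with that contrast known. The members' differences are therefore given as a description, with no test.

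RNA came from 2 groups of 2 arrays, shControl and shYTHDF3, both made by lentiviral transduction of the same line and both selected with puromycin. The sample titles name the line 4T1 and the cell line label 4T1Br. The labels do not say whether cells were single clones, how many hairpins were used, or whether the 2 arrays of a group came from separate cultures, so the spread between them may be technical. The comparison asked how transcript abundance differed between the 2 groups. Values are log2 RMA values per probe set, a unit in which a difference of 1 is a doubling, and the array number limits the precision. Probe sets differ in their response, so differences were compared between genes and levels were not. Ythdf3, the targeted transcript, read 8.98 and 8.81 on the shControl arrays against 8.21 and 8.16 on the shYTHDF3 arrays, a difference of -0.71 (SE 0.10, limma adjusted p = 0.0355).

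Keratins are the intermediate filament proteins of epithelia. Each filament is built from pairs of an acidic type I keratin and a basic type II keratin, so a cell needs members of both types. Krt8 (type II) and Krt18 (type I) form the basic pair of simple epithelia, and Krt7 (type II) and Krt19 (type I) accompany them in ducts and glands; in the mammary gland these mark luminal cells. Krt5 (type II) and Krt14 (type I) form the pair of basal cells, where Krt15 and Krt17, both type I, are also found, while Krt80 is a type II keratin linked to desmosomes and seen in many epithelia.

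The regions just before the start sites of Krt7, Krt8 and Krt18 are printed first, because these 3 genes were all higher in shYTHDF3. The windows are the 250 bases before the start, from RefSeq's GRCm38.p6 assembly, 5′ to 3′ on the gene's strand. They lie at chr15:101412153-101412402 on the plus strand for Krt7, chr15:102004343-102004592 on the minus strand for Krt8 and chr15:102027966-102028215 on the plus strand for Krt18. Capitals mark matches, on either strand, to the GC box GGGCGG or the E-box CACCTG.
Krt7: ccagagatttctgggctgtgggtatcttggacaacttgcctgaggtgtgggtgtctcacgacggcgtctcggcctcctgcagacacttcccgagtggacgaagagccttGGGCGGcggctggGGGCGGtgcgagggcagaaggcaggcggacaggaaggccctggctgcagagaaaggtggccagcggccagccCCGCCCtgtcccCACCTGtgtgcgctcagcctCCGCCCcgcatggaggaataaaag
Krt8: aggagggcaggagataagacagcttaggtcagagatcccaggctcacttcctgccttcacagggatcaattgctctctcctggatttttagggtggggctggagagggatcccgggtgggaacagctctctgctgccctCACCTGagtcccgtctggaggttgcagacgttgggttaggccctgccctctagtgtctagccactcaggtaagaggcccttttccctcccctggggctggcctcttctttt
Krt18: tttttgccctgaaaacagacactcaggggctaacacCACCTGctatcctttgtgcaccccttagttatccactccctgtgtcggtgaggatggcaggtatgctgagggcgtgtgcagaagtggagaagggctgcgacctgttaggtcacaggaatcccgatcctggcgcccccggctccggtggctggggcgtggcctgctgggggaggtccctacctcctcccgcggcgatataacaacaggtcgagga
The search also covered the AP-1 letters TGAGTCA and the TATA box TATAAA, and none of the motifs overlapped in the 3 windows. The Krt7 window held 4 GC boxes, 141, 128, 56 and 24 bases before the start, and 1 E-box 44 bases before it. The Krt8 and Krt18 windows each held 1 E-box, 111 and 214 bases before the start, and no GC box. Windows were found for 6 of the 10 keratins, and the E-box letters stood in 5 of them (Krt7, Krt8, Krt18, Krt23 and Krt5) against 17.2% of all 32851 windows. A GC box stood in 1 of the 6 (Krt7) against 32.7% of all windows. AP-1 and TATA box letters stood in 0 of the 6, against 4.46% and 12.4% of all. The Krt14 window lies inside that gene's listed span, so it may not lie before the start in use, and what it lacks is not read for Krt14. A match is a description of letters and shows no binding.

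Krt7 had the largest difference of the 9. Its probe set (17315200) read 5.55 and 5.58 on the shControl arrays against 6.99 and 7.15 on the shYTHDF3 arrays. Both shYTHDF3 arrays thus lay far above both shControl arrays, and the arrays of a group lay close together. The group means were 5.57 ± 0.02 and 7.07 ± 0.12 (SD, n = 2 each), a difference of 1.50 (SE 0.10) or 2.83-fold. Only 4 of the 13056 genes above the background level had a larger difference upwards. Krt7 was chosen by this same rise, so its place near the top follows from the choice. The background was a level set at 4.28, under which the means of 95% of olfactory receptor probe sets lie. RNA from bulk culture cannot tell more Krt7 transcript per cell from more cells that hold it.

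Krt18 and Krt8, the partners of the basic simple epithelial filament, were both higher in shYTHDF3, by less than Krt7. Krt18 (probe set 17315245) read 10.45 and 10.57 on the shControl arrays against 11.13 and 11.02 on the shYTHDF3 arrays, with means of 10.51 ± 0.09 and 11.08 ± 0.08 (SD, n = 2 each). The difference was 0.57 (SE 0.10), or 1.48-fold. A second Krt18 probe set (17322125) read 6.01 and 5.67 against 6.49 and 6.45, a difference of 0.63, so both probe sets of this gene pointed the same way without overlap.

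Krt8 (probe set 17322113) read 10.04 and 10.18 on the shControl arrays against 10.45 and 10.39 on the shYTHDF3 arrays. The groups did not overlap, and the difference was 0.31 (SE 0.10), or 1.24-fold. Taken within each array against the shControl mean of each gene, Krt18 stood above Krt8 by 0.28 and 0.24 on the shYTHDF3 arrays and by 0.0073 and -0.0073 on the shControl arrays. The ratio of Krt18 to Krt8 thus differed by 0.26 between the groups, with an SD of 0.010 in shControl and 0.032 in shYTHDF3 (n = 2 each).

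Krt19, the small type I keratin without a tail domain, was the 1 member lower in shYTHDF3 without overlap between the groups. Its probe set (17269368) read 6.86 and 6.63 on the shControl arrays against 6.30 and 6.13 on the shYTHDF3 arrays. The means were 6.75 ± 0.16 and 6.22 ± 0.12 (SD, n = 2 each), a difference of -0.53 (SE 0.12), which left 0.693 of the shControl level. No shYTHDF3 array reached a shControl array. Within arrays, and again against the shControl mean of each gene, Krt7 stood above Krt19 by 1.86 and 2.20 on the shYTHDF3 arrays and by -0.13 and 0.13 on the shControl arrays, a mean change of 2.03. The same change was 1.10 for Krt18 over Krt19 and 0.84 for Krt8 over Krt19. The differences of the simple epithelial keratins thus ran in both directions.

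Krt23, another type I keratin of the simple epithelial group, lay under the background level on all 4 arrays. It read 3.29 and 3.23 on the shControl arrays against 3.47 and 3.30 on the shYTHDF3 arrays. These values overlap the level of probe sets for genes that such cells are not thought to use, so their difference of 0.13 has no reading as a change in transcript.

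**Figure D1:**
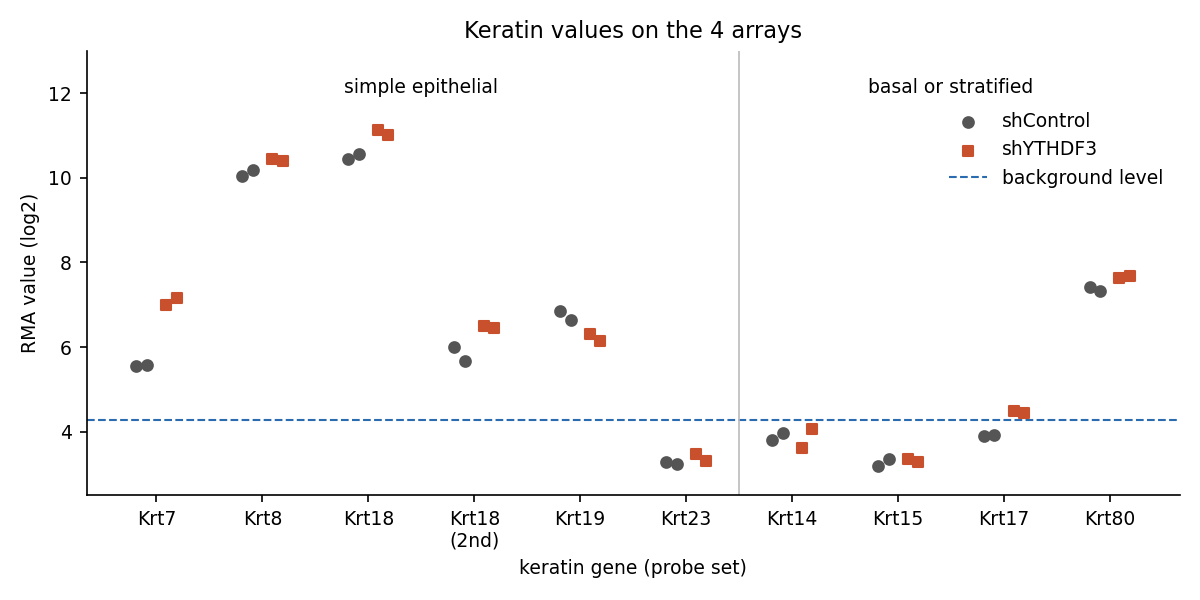
RMA values (log2, vertical axis) of the 10 keratin probe sets on each array, with shControl as grey circles, shYTHDF3 as red squares and the background level of 4.28 as a dashed line. Krt7 runs from 5.55 to 5.58 in shControl and from 6.99 to 7.15 in shYTHDF3, Krt19 is lower in shYTHDF3, and of the basal or stratified keratins only Krt80 lies above the line on all 4 arrays.

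Of the basal and stratified keratins, Krt80 alone was above background in both groups. Its probe set (17321823) read 7.42 and 7.32 on the shControl arrays against 7.62 and 7.69 on the shYTHDF3 arrays. Both shYTHDF3 arrays were higher, with a difference of 0.29 (SE 0.10) or 1.22-fold, close to that of Krt8.

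Krt17, a keratin of skin appendages and wounded epidermis, lay under the background level in shControl and just over it in shYTHDF3. It read 3.89 and 3.93 on the shControl arrays against 4.49 and 4.45 on the shYTHDF3 arrays, and the arrays of each group lay within 0.03 (SD) of their mean. The measured difference was 0.56, but only the last 0.19 of it lay above the background level, so it is given as at least 0.19 from that level. Krt14, Krt16 and Krt17 are closely similar genes, so this probe set may have measured any of them. The probe set named for Krt16 read 2.78 and 2.96 on the shControl arrays against 2.85 and 2.67 on the shYTHDF3 arrays.

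Krt14 and Krt15 lay under the background level on all 4 arrays, and their groups overlapped. Krt14, the basal partner of Krt5, read 3.81 and 3.96 on the shControl arrays against 3.63 and 4.07 on the shYTHDF3 arrays. Krt15 read 3.20 and 3.36 against 3.35 and 3.28. The probe set shared by Krt5 and Krt6a read 4.06 and 4.24 against 4.19 and 4.15, also under background, and cannot be given to either gene. Of the basal pair Krt5 and Krt14, then, no transcript was measured above background in either group.

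Over the 9 genes, 6 were higher in shYTHDF3 without overlap between the groups, where 23.4% of all 22180 named genes were, and 1 was lower without overlap, where 22.1% were. Since the list was made with this contrast known, nothing is read from these counts. The simple epithelial genes had a median difference of 0.31 (5 genes, from -0.53 to 1.50) and the basal or stratified genes of 0.16 (4 genes, from -0.04 to 0.56), beside 0.0015 over all named genes. With 3 of the 4 basal or stratified genes under background in shControl, these medians do not compare the 2 kinds of keratin. By type, the 3 type II members were all higher (0.29 to 1.50), while the 6 type I members ran from -0.53 to 0.57. Of the type I members only Krt18 and Krt19 had a mean above background, and the type II member Krt5 has no value. The types are therefore not compared. Of the 9 genes, 5 had a mean above background over the 4 arrays: Krt7, Krt8, Krt18, Krt19 and Krt80.

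**Figure D2:**
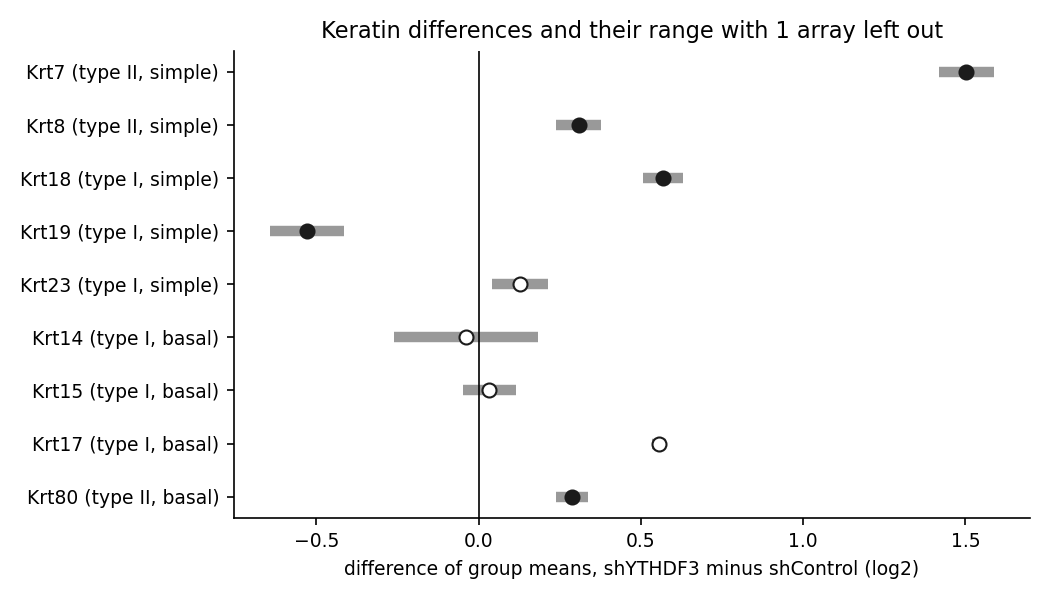
Difference of group means (log2, horizontal axis, shYTHDF3 minus shControl) of the 9 keratins as points, with grey bars from the lowest to the highest value when 1 array is left out; open points have a group mean under background. The Krt7 bar runs from 1.42 to 1.59, the Krt19 bar from -0.64 to -0.42, and the Krt14 and Krt15 bars cross 0.

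The other keratin genes, 44 in number, give the setting. Most lay at background: 28 were left out as dim and 16 were tested, and of these limma called 0 at an adjusted p under 0.05 (2 at an unadjusted p under 0.05, both lower, and 0 called with an intensity trend in the variance model), where 2.73% of all genes tested were called (1.28% higher and 1.45% lower). Their differences ran from -0.48 to 0.37 with a median of -0.09, beside 0.0057 over all genes tested. At the unadjusted level 1596 of all 13056 genes tested were higher and 1354 lower, and with the trend 1426 were called. Krt88 read 4.76 and 4.74 on the shControl arrays against 4.29 and 4.26 on the shYTHDF3 arrays, close to background throughout, a difference of -0.48 (SE 0.09, limma adjusted p = 0.0544). Krt86, a hair keratin, read 4.31 and 4.84 against 4.99 and 4.91, a difference of 0.37 (SE 0.18, limma adjusted p = 0.289).

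Mouse keratin genes lie in 2 clusters, the type II genes with Krt18 on chromosome 15 and the other type I genes on chromosome 11, and the order below is that of the GRCm38.p6 gene table. Krt80 and Krt7 are neighbours at one end of the chromosome 15 cluster, and Krt8 and Krt18 are neighbours at the other end. Of the 8 keratins tested between them, none was called by limma, where 2.73% of all genes tested were, and 2 had a difference above 0. At that share so few genes would seldom hold a call, so nothing is read from its absence. The next gene beyond Krt7, Krt87, lay under background, and Krt88 after it had the difference of -0.48 given above. Beside Krt8, Krt78 differed by -0.26 (SE 0.10, limma adjusted p = 0.210). On chromosome 11, Krt19 was the only member tested, and Krt15 and Krt9, its neighbours, had means under background over the 4 arrays. Krt9 read 4.16 and 4.43 on the shControl arrays against 4.10 and 3.81 on the shYTHDF3 arrays. None of the 8 other keratins tested on that chromosome was called by limma, again beside 2.73% of all genes tested.

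**Figure D3:**
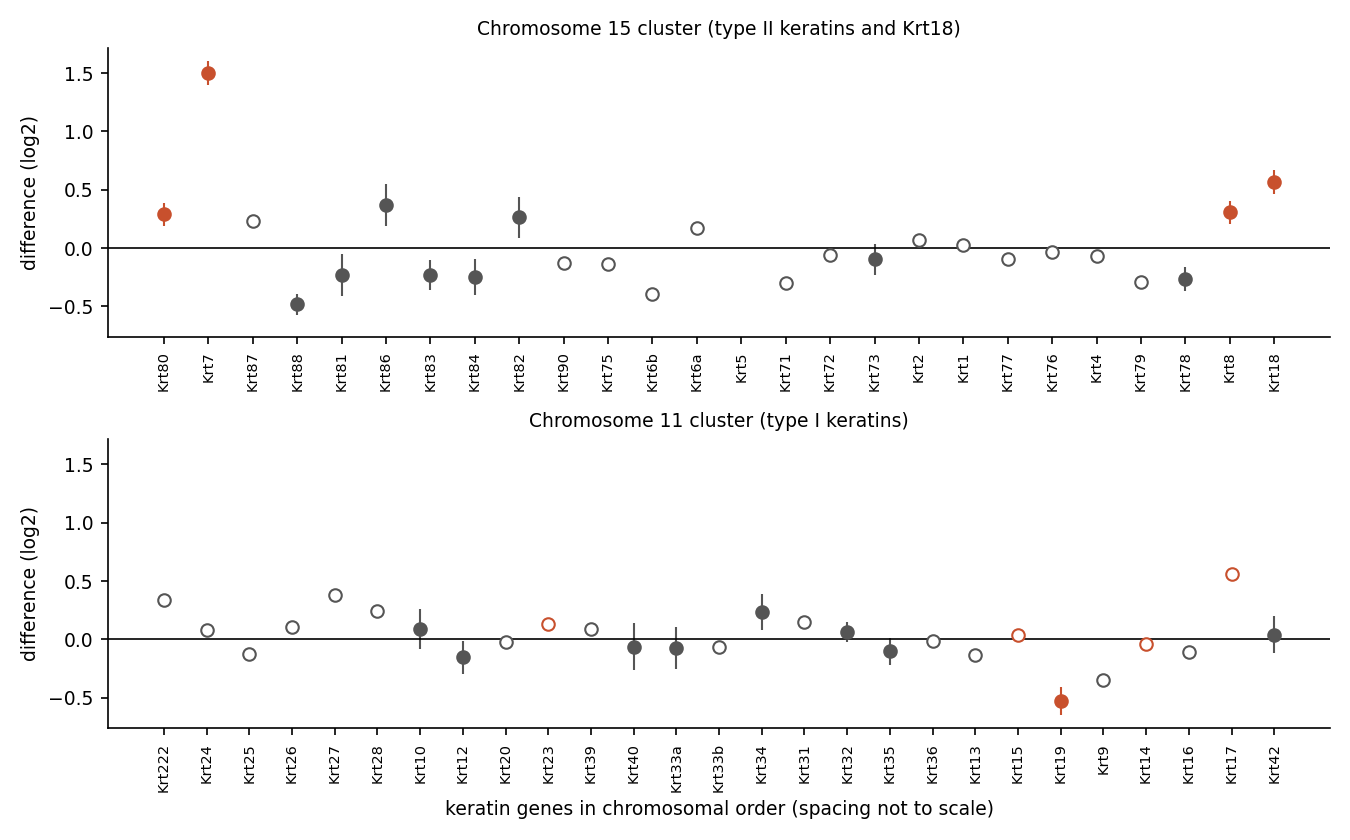
Difference of group means (log2, vertical axis, shYTHDF3 minus shControl) of the keratin genes in chromosomal order on chromosomes 15 and 11, with members in red, other keratins in grey, limma's SE as bars and open points for genes under background. The differences of Krt7 (1.50), Krt8 (0.31) and Krt18 (0.57) stand at the ends of the chromosome 15 cluster, with values from -0.48 to 0.37 between them.

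Genes whose products tie keratin filaments to junctions held 2 calls. Of 15 linker and desmosome genes tested, 2 rose, 0 fell and 13 did not pass. Of all genes tested, 1.28% were called higher and 1.45% lower. The linker differences ran from -0.49 to 1.81 with a median of 0.06, beside 0.0057 over all genes tested. At limma's unadjusted p under 0.05, 5 linker genes were higher and 3 lower, where 1596 and 1354 of all 13056 genes tested were. With an intensity trend 4 were called higher and 2 lower, where 730 and 696 of the 13056 were. Perp, a tetraspan desmosome component, read 5.85 and 5.72 on the shControl arrays against 7.66 and 7.55 on the shYTHDF3 arrays, a rise of 1.81 (SE 0.10, limma adjusted p = 0.00553). Jup, which encodes plakoglobin, a desmosomal plaque protein, read 7.34 and 7.52 against 8.36 and 8.23, a rise of 0.87 (SE 0.11, limma adjusted p = 0.0297). Dsp, the desmoplakin gene whose product binds keratins directly, had a mean under background over the 4 arrays, as did the desmosomal cadherin genes Dsg2 and Dsc2.

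Other partners of keratins and other filaments gave no calls, where 2.73% of all genes tested were called. At limma's unadjusted p under 0.05, 1596 of 13056 genes tested were higher and 1354 lower, and with an intensity trend 1426 were called. Limma called 0 of 10 genes for 14-3-3 proteins, chaperones and caspases (1 at an unadjusted p under 0.05, Ywhag, which was lower, and 0 with an intensity trend), with a median of -0.08. Ywhag, a 14-3-3 gene, differed by -0.29 (-0.45 and -0.06 on its other probe sets) and Dnajb6, a chaperone gene, by -0.25. Limma also called 0 of 8 other intermediate filament genes (2 higher at an unadjusted p under 0.05, and 1 with an intensity trend), with Nes, which encodes nestin, at 0.38 and Lmnb1, which encodes lamin B1, at 0.36. Vim, the vimentin gene of mesenchymal cells, read 12.80 and 12.89 on the shControl arrays against 12.90 and 12.71 on the shYTHDF3 arrays, and its groups overlapped; it was picked out after its values were seen.

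Among transcription and splicing regulators known to act on keratin or epithelial genes, 15 were tested, of which 1 fell, 0 rose and 14 did not pass, with a median of -0.18. Of all genes tested, 1.45% were called lower and 1.28% higher, with a median of 0.0057. At limma's unadjusted p under 0.05, 0 of the 15 regulators were higher and 5 lower, where 1596 and 1354 of all 13056 genes tested were. Fosl2, an AP-1 subunit, read 8.55 and 8.59 on the shControl arrays against 7.71 and 7.69 on the shYTHDF3 arrays, a fall of 0.87 on the log2 scale (SE 0.09, limma adjusted p = 0.0232). Under background lay Trp63, which encodes the basal factor p63 (4.09 and 4.03 as group means), Grhl2, an activator of epithelial junction genes (3.81 and 3.98), and Zeb1, a repressor of epithelial genes (3.83 and 3.81).

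Luminal mammary genes other than keratins held 1 call. Of 15 tested, 1 rose, 0 fell and 14 did not pass. The luminal differences ran in both directions, from -0.42 to 1.12, with a median of -0.03. At limma's unadjusted p under 0.05, 2 luminal genes were higher and 0 lower. Beside this list and the next ones, 1.28% of all genes tested were called higher and 1.45% lower, with a median of 0.0057. At the unadjusted level 1596 of all 13056 genes tested were higher and 1354 lower. Csn3, which encodes the milk protein kappa-casein, read 5.41 and 5.24 on the shControl arrays against 6.35 and 6.54 on the shYTHDF3 arrays, a rise of 1.12 (SE 0.11, limma adjusted p = 0.0229). Basal and myoepithelial genes other than keratins had 3 falls among 15 tested, 0 rises and 12 that did not pass. Their differences ran from -0.98 to 0.07 with a median of -0.26, and at limma's unadjusted p under 0.05, 0 were higher and 7 lower. Cav1, which encodes caveolin 1, read 7.02 and 7.11 against 5.98 and 6.20, a difference of -0.98 (SE 0.11, limma adjusted p = 0.0262). Procr, the protein C receptor gene of a mammary basal population, differed by -0.88 (SE 0.14, limma adjusted p = 0.0432), and Egfr by -0.70 (SE 0.11, limma adjusted p = 0.0417). None of these 3 is used by basal cells alone. Genes of stratified and cornified epithelium had 1 fall among 12 tested, 0 rises and 11 that did not pass, with a median of -0.20. At limma's unadjusted p under 0.05, 0 of them were higher and 3 lower. Lgals7, a galectin of stratified epithelia, read 5.42 and 5.42 against 4.87 and 4.80, a difference of -0.58 (SE 0.09, limma adjusted p = 0.0408).

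With any 1 array left out, limma's adjusted p of Ythdf3, Jup, Fosl2, Csn3, Cav1, Procr, Egfr and Lgals7 lay between 0.100 and 0.221, and without the filter on dim genes between 0.0503 and 0.103, so these 8 calls ended. That of Perp was 0.115 and 0.133 when shControl 1 or shControl 2 was left out, 0.0514 when shYTHDF3 1 was, and 0.0320 when shYTHDF3 2 was.

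**Figure D4:**
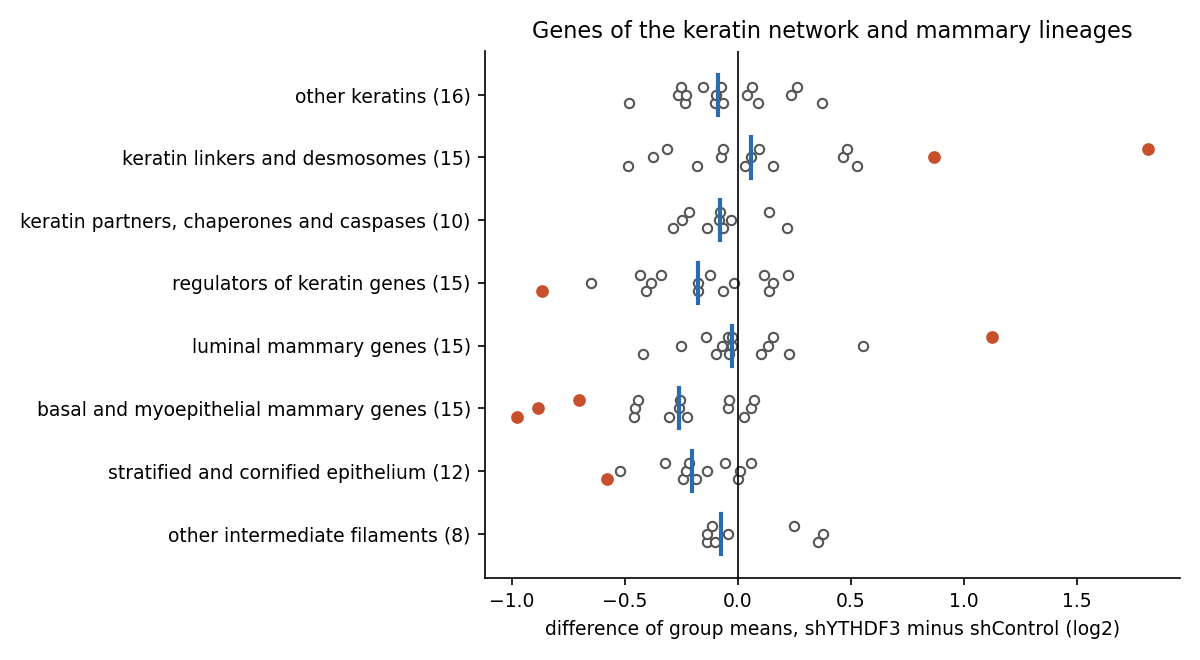
Difference of group means (log2, horizontal axis, shYTHDF3 minus shControl) of each gene tested in 8 lists (number of genes in brackets), with filled red points for genes called by limma and a blue line at each list's median. Perp (1.81) and Jup (0.87) stand out among the linkers, and the 3 basal and myoepithelial genes called lie between -0.98 and -0.70.

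The genes whose values came closest to those of Krt7 were Gdpd5, Trp53i11, Chrnb1, Myo1d and Chn1. Each gene was set against its own shControl mean, and likeness was the root mean square distance over the 4 arrays. Gdpd5, a glycerophosphodiester phosphodiesterase gene, was nearest at 0.091, with 6.12 and 6.37 in shControl and 7.76 and 7.81 in shYTHDF3. Trp53i11, a p53-induced gene, stood at 0.12, the acetylcholine receptor gene Chrnb1 at 0.14, the myosin gene Myo1d at 0.16, and Chn1, a Rac GTPase-activating protein gene, at 0.18. With 4 arrays such likeness amounts to a rise of similar size.

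Markers of cell types were read beside the keratins. Of 9 epithelial markers, Krt7, Krt8, Krt18 and Krt19 among them, 7 were above background, while Epcam (3.94 and 3.80 in shControl, 4.05 and 3.95 in shYTHDF3) and Cldn7 (3.73 and 3.81 against 4.35 and 4.20) had means under it. Cdh1, the E-cadherin gene, stood just over it, at 4.37 and 4.46 against 4.43 and 4.61, while Krt7, Krt8, Krt18, Krt19 and Cldn3 lay further above it in both groups. The epithelial values summed to 57.1 and 57.4 in shControl and to 59.9 on both shYTHDF3 arrays. That sum holds the 4 keratins, which were listed with this contrast known, so nothing is read from its rise. Outside the keratins, Cldn3 differed by 0.13, Cdh1 by 0.10 and Cldn4 by -0.03, none of which passed. Cldn7 differed by 0.51 and Epcam by 0.13, with means under background. Of 7 fibroblast markers 6 were above background, with log2 values summing to 38.4 and 39.8 in shControl and 35.7 and 36.3 in shYTHDF3. Within that sum Dcn differed by -2.65 (limma adjusted p = 0.00474, ending as a call at 0.115 without shControl 1 and 0.133 without shControl 2) and Pdgfra by -0.61 (limma adjusted p = 0.0471, and 0.00229 to 0.216 over the alternatives). Col3a1 differed by -0.23, Col1a2 by -0.05, Col1a1 by 0.10 and Pdgfrb by 0.21, none of which passed, and Lum lay under background. Ptprc, the pan-leukocyte gene, and Pecam1, of endothelium, had means under background. Of the other lists, 1 of 5 leukocyte markers (Cd68), 1 of 4 endothelial and 2 of 4 neural and glial markers were above it. Cd68, a gene of macrophages that other cells also use, read 7.30 and 7.57 on the shControl arrays against 6.62 and 6.82 on the shYTHDF3 arrays, a difference of -0.72 (SE 0.13, limma adjusted p = 0.0547, and 0.00874 to 0.209 over the alternatives). The sums ran from 21.7 to 22.3 in shControl and 21.1 to 21.8 in shYTHDF3 for leukocytes, 16.1 to 16.2 and 16.0 to 16.7 for endothelium, and 17.6 to 18.0 and 17.5 to 17.6 for neural cells. The part of these in the keratin differences was not tested.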

How the data were processed

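Total RNA of 4 samples (2 shControl, 2 shYTHDF3 by title) was hybridised to Affymetrix arrays. The deposited values are log2 values per probe set, which the authors made with RMA, according to the submitters' processing notes; the software and the log base themselves are not given in the sources used, and log2 was inferred from the range. RMA aligns the arrays, so a shift of most genes would not be seen.

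Of 41345 probe sets, 23521 had 1 gene symbol, 1814 several and 16010 none. For 23328 of the single symbols the RefSeq symbol was used, whether or not it differed. A gene's value is its probe set with the highest mean. Genes above the background level (13056 of 22180) were fitted with limma 3.58.1 in R 4.3.3 (lmFit, eBayes, two-sided, Benjamini-Hochberg over genes tested, threshold 0.05); 356 were called. SE is limma's.

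The members, lists and rules were chosen with earlier results of these data known. Named were all members, Ythdf3, and per list up to 4 called genes in each direction, or the 2 largest differences where none was called; any other is marked or is a marker, a cluster neighbour or a gene under background. Protein identity, although planned, was not analysed here. Only the limma fit was tried on simulated data, with 200 changed genes and independent arrays. Whether the arrays of a group are independent here is not known, so that trial does not cover this point. Figures used matplotlib 3.10.9. Alternatives were other filters, an intensity trend, renewed quantile normalization, a common median, the mean of probe sets, a block for the replicate number, all probe sets, and each array left out.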

Additional observations from a re-analysis of the deposited data

How the results depend on the processing

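The 9 keratin differences kept their direction under the 11 alternatives in which each was recomputed, except those of Krt14 and Krt15, whose groups overlap and which changed sign with 1 array left out. Most of these alternatives could not reverse a direction. The filters, the intensity trend and the replicate block leave a difference of group means as it was. Leaving out 1 array cannot reverse a gene whose groups do not overlap. Little is therefore read from the kept directions. The simple epithelial median was 0.34 after renewed quantile normalization and 0.24 to 0.38 with 1 array left out; the basal or stratified median was 0.14 to 0.25 with 1 array left out. Limma called 356 genes, and 43 without the filter (41 shared with the 356), 1426 with an intensity trend, 51 with the replicate block, 0 to 12 with 1 array left out, and 0 over all 21867 probe sets past the filter (3337 at an unadjusted p under 0.05). With no filter, and with the replicate block, limma called 1 linker gene (Perp) and 0 regulators, 0 luminal, 0 basal and 0 stratified genes. With an intensity trend it called 6 linkers (4 higher and 2 lower), 3 regulators (all lower), 2 luminal genes (all higher) and 1 other filament gene (higher). With a filter set at the probe sets' median it called 1 other keratin, Krt88, whose limma adjusted p ran from 0.0471 to 0.261 over the alternatives. With 1 array left out it called 0 to 1 linkers and 0 to 0 in each other list. Such fits have fewer residual degrees of freedom. The deviations of same-numbered arrays from their group means had a correlation of -0.066 over genes tested. With 2 arrays per group the 2 pairs give the same value. It therefore cannot show whether same-numbered arrays shared a batch or culture. No depth applies to arrays; Krt14, Krt15, Krt23 and the Krt5/Krt6a probe set are limited by signal at background.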
